A study of Mus musculus with 2 samples.

Results

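The aryl hydrocarbon receptor (AHR) pathway was read in mouse embryonic fibroblasts (MEFs) held in quiescence. MEFs are connective tissue cells cultured from embryos. It was represented by 5 genes, Ahr, Ahrr, Cyp1a1, Cyp1b1 and Tiparp, out of 18193 genes named on the array. Every probe set annotated to exactly 1 of these genes was taken, which gave 10 of 45101 probe sets. Cells of the first group carried p27delta51, an allele of Cdkn1b whose product p27 is known for having lost its amino-terminal part, needed to inhibit cyclin-CDK complexes. Cells of the second group were wild type (WT). Both were grown in 10% fetal bovine serum and then held for 72 h without serum, and no AHR ligand is named in the labels for either group. RNA of each genotype was hybridised to 1 Affymetrix array, so that no SD between cultures, no test and no replicate check was possible, and all differences describe these 2 arrays. The sources used here do not say whether a culture came from 1 embryo or several.

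AHR is a transcription factor of the bHLH-PAS family that waits in the cytoplasm in a chaperone complex. When it binds a planar aromatic ligand it enters the nucleus, pairs with ARNT and activates genes that carry the xenobiotic response element. Cyp1a1 and Cyp1b1, its classical targets, encode haem enzymes that oxidise such ligands as well as steroids and retinoids. Some of its targets act back on it, as AHRR competes with AHR for ARNT and TIPARP, also called PARP7, marks AHR by mono-ADP-ribosylation. In MEFs, Cyp1b1 is known as the main CYP1 enzyme gene, and in rat hepatoma cells AHR activation is known to induce p27 itself.

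The members did not move together. Cyp1b1 and Ahr were lower in p27delta51 MEFs, Tiparp was higher, Ahrr differed by less than 2-fold, and Cyp1a1 lay at background on both arrays. Values are signal intensities on a linear scale. A control floor, the highest signal among 27 probe sets for bacterial transcripts, stood at 14.8 on the p27delta51 array and 11.8 on the WT array, and lower signals were raised to it before log2 differences were taken. Genes were kept for counts where the mean signal of their brightest probe set reached 22.2, the median over all probe sets. Of the 5 genes, 4 were kept; 1 of these was at least 2-fold higher in p27delta51, against 10.8% of all 11159 kept genes, and 2 were at least 2-fold lower, against 8.77%. Cyp1b1, 1 of the lower genes, was kept only through its WT signal. These 4 are too few for a share to be read from them, and Cyp1a1 did not enter the counts because it was dim on both arrays. In the authors' deposited table, 4 of the 10 probe sets carried an increase call, a call given to 14.4% of named probe sets when marginal calls are included. A decrease call stood at 3 of the 10 in the authors' deposited table, against 12.2% of named probe sets, and the other 3 carried a no-change call. The increase calls were on the 3 Tiparp probe sets and Ahrr, and the decrease calls on Ahr and 2 Cyp1b1 probe sets. Probe sets of 1 gene are not independent, so no share is read from these calls either. In these bulk samples, fewer cells that make a transcript and less of it per cell cannot be told apart.

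**Figure D1:**
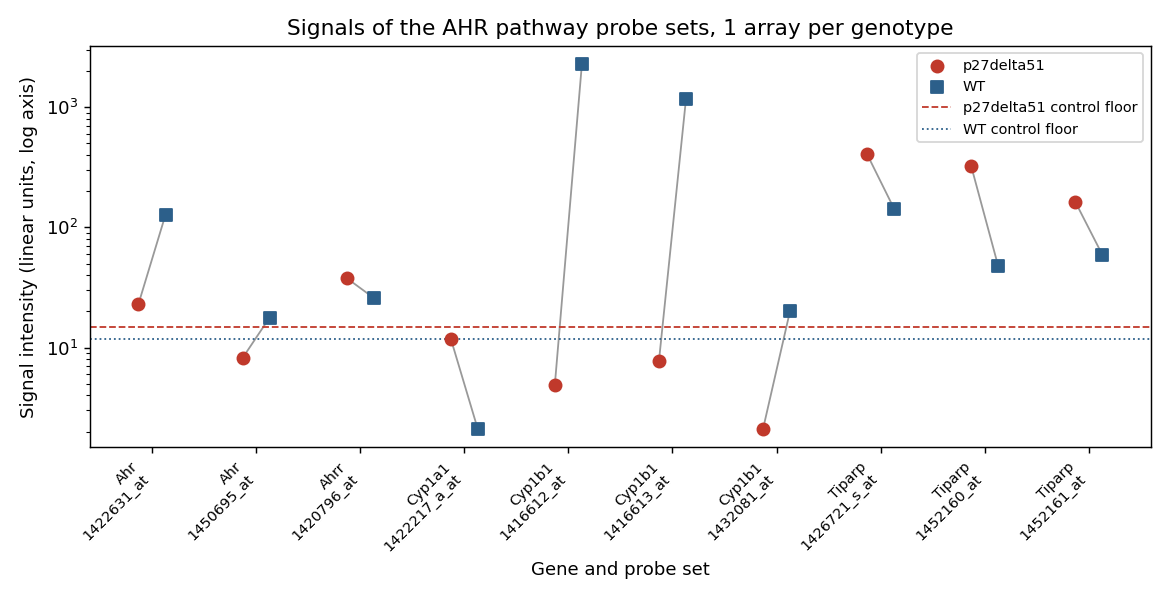
Signal intensity (linear units, log axis) of each of the 10 probe sets on the p27delta51 array (circles) and the WT array (squares), 1 array per genotype, with the control floor of each array as a horizontal line. Both bright Cyp1b1 probe sets lie under the floor in p27delta51 and far above it in WT, and all 3 Tiparp probe sets are higher in p27delta51.

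The arrays also differed outside this pathway. Over all kept genes the median log2 difference of p27delta51 over WT was 0.079, with quartiles at -0.33 and 0.51. Cdkn1b was read by a probe set at 1016 in p27delta51 and 542 in WT and by another at 1.6 in p27delta51 and 62.0 in WT, and it was not established which of them reads the deleted part. Xist, which coats the inactive X, gave 876 in p27delta51 and 25.8 in WT, while the Y-linked Eif2s3y gave 6.9 in p27delta51 and 425 in WT, so sex and genotype cannot be told apart. The 11 fibroblast markers were all kept and went both ways, 5 higher and 6 lower in p27delta51. Col1a1, Col1a2 and Vim were bright on both arrays, Pdgfra gave 529 in p27delta51 and 138 in WT, Thy1 gave 18.6 in p27delta51 and 279 in WT, and Lum gave 14.8, the floor, in p27delta51 and 107 in WT. Of the 6 endothelial markers 5 were at or under the floor in p27delta51 and 3 in WT, with Pecam1, Cdh5 and Tie1 under it on both arrays. Egfl7 gave 51.1 in p27delta51 and 19.1 in WT. Tek went the other way, at 7.9, under the floor, in p27delta51 and 28.2 in WT. Of the 7 macrophage markers, Ptprc and Tyrobp were under the floor on both arrays and 3 were kept, with Cd14 at 86.9 in p27delta51 and 32.2 in WT, Csf1r at 56.5 in p27delta51 and 65.0 in WT, and Lyz2 at 19.7 in p27delta51 and 30.4 in WT. The 7 epithelial markers summed to 139 in p27delta51 and 281 in WT, and 4 were at or under the floor in p27delta51 and 2 in WT. Krt19 gave 13.7, under the floor, in p27delta51 and 177 in WT. Epcam went the other way, at 60.7 in p27delta51 and 26.4 in WT. For Epcam the authors' deposited table lists a log2 ratio of 0.1 with a no-change call. The part of sex or of other cell types in the differences reported here was not tested.

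Ahr, the receptor gene, was read by a pair of probe sets designed from 1 source sequence. The brighter, 1422631_at, gave 23.1 in p27delta51 MEFs and 128 in WT MEFs, a log2 difference of -2.47 or 5.54-fold lower in p27delta51. Counting Ahr itself, 273 of the 11159 kept genes differed this far downwards or further. The p27delta51 signal was 1.56 times its floor, so the size of the fold is approximate. The dimmer probe set, 1450695_at, gave 8.2 in p27delta51, under the floor, and 17.8 in WT, which allows only a bound of at least 1.2-fold lower. Both probe sets were thus lower in p27delta51, and only the brighter had the range to show by how much. The authors' deposited table lists log2 ratios of -2.3 with a decrease call and -0.5 with a no-change call.

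Cyp1b1, the extrahepatic CYP1 enzyme gene, showed the widest difference of the members. Probe set 1416612_at gave 4.9 in p27delta51 and 2279 in WT, at least 154-fold lower in p27delta51. Probe set 1416613_at, designed from the same source sequence, gave 7.7 in p27delta51 and 1166 in WT, at least 78.8-fold lower. Both p27delta51 signals were at background, whereas the WT signals were 193 and 98.8 times the floor. The third, 1432081_at, came from another source sequence and gave 2.1 in p27delta51 and 20.2 in WT, a signal too near the floor for more than a bound of at least 1.36-fold lower. With the first probe set, Cyp1b1 was among the 6 kept genes with the lowest differences. The authors' deposited table gives -8.7 and -7.3 with decrease calls for the bright probe sets and -3.0 with a no-change call for the third.

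The 5 kept genes whose pair of log2 signals, raised to the floor, lay nearest to that of Cyp1b1 were Ankrd1, Bex1, Cnmd, Peg3 and Serpinb6b. Their distances were 0.017, 0.21, 0.23, 0.27 and 0.49 log2 units over the 2 arrays. With 2 arrays this measure only finds genes that are bright in WT and near background in p27delta51. Ankrd1 gave 13.7 in p27delta51 and 2307 in WT, and Serpinb6b gave 18.6 in p27delta51 and 1780 in WT.

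Cyp1a1, the liver and lung CYP1 gene that serves as the usual readout of AHR activation, had 1 probe set, 1422217_a_at. It gave 11.9 in p27delta51 and 2.1 in WT, below the floor on both arrays, and no fold is given. The authors' deposited table lists a log2 ratio of 2.5 with a no-change call and a change p-value of 0.074, which compares the 2 arrays and not the genotypes. Cyp1a2, its neighbour in the liver programme, was also below the floor on both arrays, at 1.2 in p27delta51 and 4.0 in WT.

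Tiparp was higher in p27delta51 on all 3 of its probe sets, which share a source sequence. Probe set 1426721_s_at gave 406 in p27delta51 and 143 in WT, 2.85-fold higher. Probe set 1452160_at gave 324 in p27delta51 and 47.6 in WT, 6.81-fold higher, and 1452161_at gave 164 in p27delta51 and 59.3 in WT, 2.76-fold higher. All 6 signals were above the floor. The log2 differences averaged 1.91 ± 0.74 (SD over 3 probe sets, a technical spread within the same arrays), so the probe sets share the direction and vary in size. The median of this SD was 0.23 over the 5316 genes that had 2 or more bright probe sets. The authors' deposited table gives log2 ratios of 1.6, 2.6 and 1.4, each with an increase call. Counting Tiparp itself, 575 kept genes (5.15%) were at or above the difference of its brightest probe set, and 146 kept genes reached the difference of 1452160_at.

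Ahrr, the repressor gene, was read by 1420796_at at 37.9 in p27delta51 and 25.9 in WT, a log2 difference of 0.55 or 1.46-fold higher. Both signals lay within 3 times of the floor, and 2585 kept genes were as high or higher. The authors' deposited table gives a log2 ratio of 0.6 with an increase call.

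**Figure D2:**
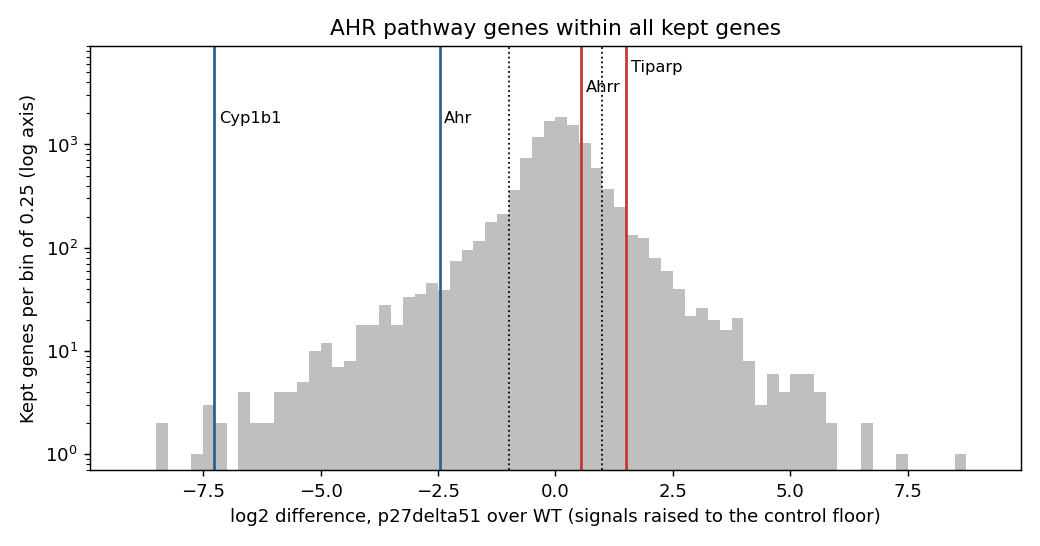
Histogram of the log2 differences (p27delta51 over WT, signals raised to the control floor) of all 11159 kept genes, on a log count axis, with a vertical line at the brightest probe set of each kept member and dotted lines at 2-fold. Cyp1b1 at -7.27, a bound, lies in the far lower tail, Ahr at -2.47 in the lower tail, and Ahrr at 0.55 and Tiparp at 1.51 on the upper side.

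Upstream sequences of the members are shown because the xenobiotic response element, whose core is GCGTG, is the point where AHR and ARNT meet their targets, and because its presumed targets went opposite ways. The RefSeq promoter table, build GRCm38.p6, matched 4 of the 5 genes. The 250 bases before each start were searched on both strands for GCGTG and for the longer form TNGCGTG, every match of which holds the core. Capitals mark GCGTG or, where the core lies on the opposite strand, CACGC. Cyp1b1 lies on the minus strand at chr17:79715062-79715311, Tiparp on the plus strand at chr3:65528197-65528446 and Ahrr on the minus strand at chr13:74292332-74292581.
Cyp1b1: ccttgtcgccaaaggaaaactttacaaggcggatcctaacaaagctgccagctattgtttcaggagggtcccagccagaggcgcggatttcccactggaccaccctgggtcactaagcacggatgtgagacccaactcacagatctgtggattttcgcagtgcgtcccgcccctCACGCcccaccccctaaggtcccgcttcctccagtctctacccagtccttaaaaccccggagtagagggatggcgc
Tiparp: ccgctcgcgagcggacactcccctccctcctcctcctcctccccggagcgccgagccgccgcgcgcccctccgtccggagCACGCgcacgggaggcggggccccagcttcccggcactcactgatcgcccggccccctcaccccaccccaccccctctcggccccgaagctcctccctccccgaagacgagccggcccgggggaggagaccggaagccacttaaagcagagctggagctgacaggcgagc
Ahrr: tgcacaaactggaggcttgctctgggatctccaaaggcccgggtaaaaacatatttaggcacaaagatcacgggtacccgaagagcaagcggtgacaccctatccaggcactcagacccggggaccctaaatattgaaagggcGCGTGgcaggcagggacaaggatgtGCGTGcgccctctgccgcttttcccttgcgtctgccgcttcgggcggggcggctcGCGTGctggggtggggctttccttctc

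The window of Cyp1b1, far lower in p27delta51, held 1 core, and so did that of Tiparp, higher in p27delta51. The Cyp1b1 core lay 76 to 72 bases before the start and the Tiparp core 170 to 166 bases before it, both on the opposite strand. Ahrr held 3 cores, 1 of them in the longer form. Cyp1a1 held 1 core, 54 to 50 bases before its start, and no longer form. GCGTG was present in 28.2% of 32851 windows of this length in the table and TNGCGTG in 4.10%. Those shares are per window. The shares that follow are per gene, counting the core in any window of the gene, and cannot be set against those per window. The core was found for 45.5% of 960 kept genes at least 2-fold higher in p27delta51 and for 46.9% of 755 at least 2-fold lower. It was found for 52.3% of 7349 between, so the share was lower on both sides of the 2-fold limits than between them. A match describes letters only, and the best-studied elements of Cyp1a1 and Cyp1b1 are known to lie further upstream than this window.

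By their brightest probe sets, most partners of the receptor lay within 2-fold, as did most kept genes. Of all kept genes, 19.5% were at least 2-fold apart. Of the 13 listed genes of the AHR complex and its coactivators 10 were measured and kept, and 8 of them were within 2-fold. A difference of 2-fold or more was found upwards in p27delta51 for 1 and downwards for 1, against 10.8% and 8.77% of all kept genes. The list had a median log2 difference of 0.11, against 0.079 for all kept genes. Arnt2, an alternative partner of AHR, gave 143 in p27delta51 and 323 in WT, 2.27-fold lower, and its second bright probe set gave 21.1 in p27delta51 and 48.0 in WT. Arnt, the usual partner, was read inconsistently, since its brightest probe set gave 261 in p27delta51 and 199 in WT while the next, 1437042_at, gave 140 in p27delta51 and 315 in WT. Ncoa1, a coactivator, gave 234 in p27delta51 and 116 in WT, 2.01-fold higher, and was under 2-fold with median centring, quantile normalization or loess. Ncoa3 and Crebbp were within 2-fold by their brightest probe sets, but each had another bright probe set past it. That of Ncoa3 gave 77.7 in p27delta51 and 35.7 in WT, 2.18-fold higher, while its brightest gave 65.4 in p27delta51 and 75.3 in WT. That of Crebbp gave 220 in p27delta51 and 109 in WT, 2.02-fold higher. The chaperone gene Hsp90aa1 gave 3994 in p27delta51 and 3982 in WT.

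Detoxification genes of the AHR battery had 3 kept members of 9 listed, and 2 of the 3 were at least 2-fold higher in p27delta51, with 0 lower. With 10.8% of all kept genes as high and 4 of the 7 measured members too dim to be kept, nothing is read from this count. Nqo1, a quinone reductase gene that NRF2 also controls, gave 119 in p27delta51 and 33.6 in WT, 3.54-fold higher. Aldh3a1, an aldehyde dehydrogenase gene, gave 47.9 in p27delta51 and 10.1, under the floor, in WT, at least 4.06-fold higher, and was kept only through its p27delta51 signal. The third, Ugdh, which makes UDP-glucuronic acid, gave 1180 in p27delta51 and 866 in WT. Cyp1a2, Gsta2 and Xdh were under the floor on both arrays, and Cyp2s1 was too dim to be kept.

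Other genes known to respond to AHR went both ways, since 3 of 8 kept members were higher in p27delta51 by 2-fold or more and 3 were lower by as much, against 10.8% and 8.77% of all kept genes. Il33 and Fgf21 were kept only through the array on which they were bright. Socs2, a suppressor of cytokine signalling, gave 304 in p27delta51 and 42.6 in WT, 7.14-fold higher. Nfe2l2, which encodes NRF2, gave 1251 in p27delta51 and 232 in WT, 5.38-fold higher. Il33, an alarmin gene, gave 44.6 in p27delta51 and 7.9 in WT, at least 3.78-fold higher. The growth factor gene Ereg gave 39.3 in p27delta51 and 154 in WT, 3.92-fold lower, and Fgf21 gave 0.9 in p27delta51 and 53.4 in WT, at least 3.61-fold lower. Slc7a5, a carrier of tryptophan and other large amino acids, gave 951 in p27delta51 and 2246 in WT, 2.36-fold lower. Their median was -0.42, and with the stricter brightness filter, which took the upper quartile, it was 1.25.

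Enzymes that turn tryptophan into kynurenines, which can act as AHR ligands, were mostly dim, with 2 of 9 kept. By their brightest probe sets, 0 of these 2 were at least 2-fold apart, against 19.5% of all kept genes. No share is read from 2 genes. Kyat1 gave 39.0 in p27delta51 and 32.6 in WT, and Afmid gave 38.4 in p27delta51 and 24.1 in WT. A second bright Afmid probe set gave 39.0 in p27delta51 and 5.5, under the floor, in WT, at least 3.31-fold higher. It reached the brightness limit only through its p27delta51 signal. Ido1 gave 19.3 in p27delta51 and 5.4 in WT and Tdo2 gave 25.5 in p27delta51 and 17.3 in WT, both too dim to be kept.

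Within the families of the members, most other PARP and bHLH-PAS genes lay within 2-fold, as did most kept genes. Of 14 kept PARP genes 11 were within 2-fold, 3 passed it upwards and 0 downwards, against 10.8% and 8.77% of all kept genes. The signal was higher in p27delta51 for 13 of the 14, against 55.6% of all kept genes, and Parp3 gave 279 in p27delta51 and 458 in WT. Their median was 0.48, against 0.079 for all kept genes, and ran from 0.36 to 0.48 over the settings tried. Parp9, Parp14 and Zc3hav1, which are also known as interferon-inducible, were 2.89-fold, 2.44-fold and 2.54-fold higher by their brightest probe sets, but another bright Zc3hav1 probe set gave 36.4 in p27delta51 and 44.5 in WT. Parp1, the main nuclear PARP gene, gave 676 in p27delta51 and 503 in WT. Of 17 kept bHLH-PAS genes, 2 were at least 2-fold higher (Arntl2 and Ncoa1) and 1 was at least 2-fold lower (Arnt2). Arntl2, a clock factor gene, gave 73.0 in p27delta51 and 23.0 in WT, 3.17-fold higher. Hif1a, which shares ARNT with AHR, gave 2543 in p27delta51 and 2240 in WT. The median of the bHLH-PAS list was 0.38, but 0.044 when all probe sets of each gene were averaged.

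Genes for electron supply to P450 enzymes and for making or breaking down haem had 11 kept members. Of these, 0 passed 2-fold upwards in p27delta51 and 1 downwards, with a median of -0.16. The lower gene was Hmox1, an NRF2 target whose product, haem oxygenase, breaks haem down. It gave 210 in p27delta51 and 470 in WT, 2.24-fold lower, the opposite side from Nqo1. The other 10, for electron supply or haem synthesis, lay within 2-fold by their brightest probe sets. Alas1, which starts haem synthesis, gave 272 in p27delta51 and 388 in WT. Its second bright probe set gave 34.5 in p27delta51 and 73.2 in WT, 2.12-fold lower.

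**Figure D3:**
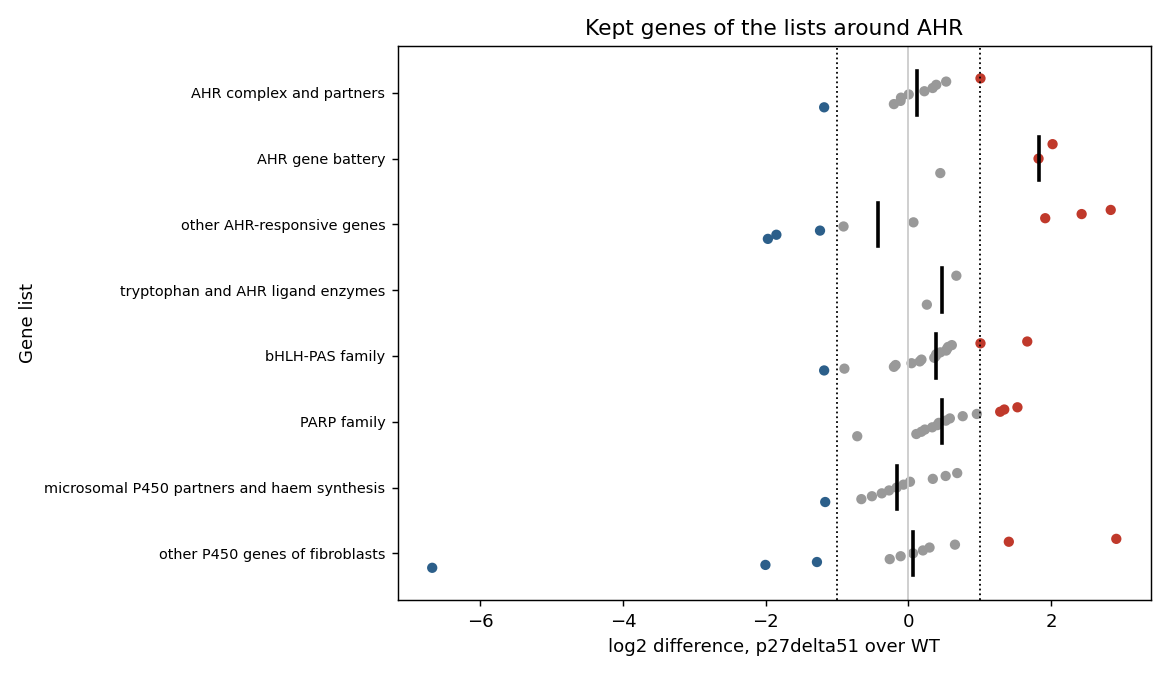
Log2 difference of p27delta51 over WT for each kept gene of the 8 lists around AHR, 1 point per gene, with a black bar at the list's median and dotted lines at 2-fold. Points at least 2-fold higher are red and points at least 2-fold lower are blue. Most PARP points lie between the dotted lines, and the other AHR-responsive genes fall on both sides.

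Most genes beside the members differed by less than 2-fold, and a few near neighbours differed strongly. Gene order came from the GRCm38.p6 gene table, and the 5 kept genes on either side were taken. Around Cyp1b1 on chromosome 17 the median of the 10 neighbours was 0.14, but the adjacent Rmdn2 gave 19.7 in p27delta51 and 82.6 in WT, 4.19-fold lower, and the next, Cdc42ep3, gave 540 in p27delta51 and 2660 in WT, 4.93-fold lower. On its other side Hnrnpll gave 1489 in p27delta51 and 1004 in WT. Beside Ahr on chromosome 12, Tspan13 went the opposite way, at 1840 in p27delta51 and 18.4 in WT, a log2 difference of 6.64, and the median of the 10 was 0.25. Tiparp lies on chromosome 3, where the other 548 kept genes had a median of 0.41 and 20.1% were at least 2-fold higher, the highest median of the 5 chromosomes. Its neighbours had a median of 0.37, and ranged from Ptx3 at 241 in p27delta51 and 3317 in WT to Shox2 at 226 in p27delta51 and 25.3 in WT. The part of the chromosome 3 shift in the Tiparp difference was not tested. Neighbours of Ahrr and Cyp1a1 had medians of 0.24 and 0.14.

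**Figure D4:**
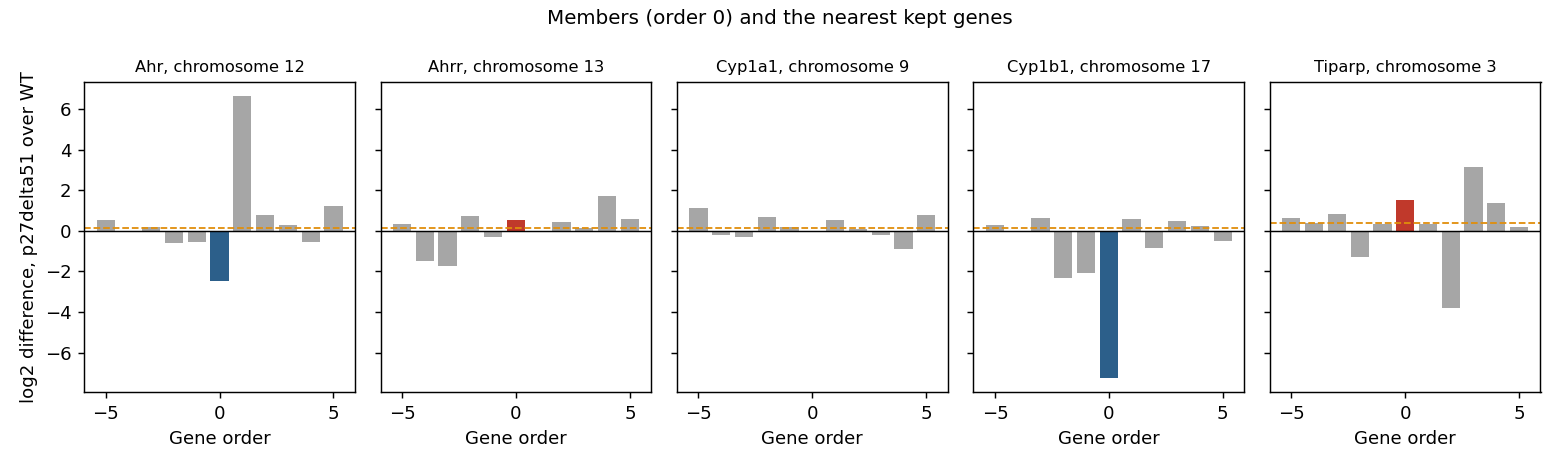
Log2 difference of p27delta51 over WT for each member (order 0, coloured) and the 5 nearest kept genes on either side (grey bars), 1 panel per member, with a dashed line at the median of the member's chromosome. Cyp1a1 has no bar because it was under the floor on both arrays. A pair of genes next to Cyp1b1 is lower with it, while the gene next to Ahr stands 6.64 log2 units higher.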

How the data were processed

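Quiescent p27delta51 and WT MEFs were compared on 1 array each. Per the submitters' processing notes, RMA and affy were used, without a version. The deposited signal intensity values are linear, with 1 decimal, and their trimmed mean was 150.0 on both arrays, which differs from the log2 scale that RMA gives, and the sources used here do not name the program that wrote them. The authors' deposited table of log2 ratios, change calls and change p-values is quoted as such, and in it an increase has a p-value near 0 and a decrease has one near 1.

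Gene names came from the platform annotation and were updated by gene identifier to GRCm38.p6, and 34945 carried 1 gene. Each of 18193 genes was represented by its probe set with the highest mean signal, and 11159 were kept. The floor was exceeded by 58.6% of probe sets in p27delta51 and 62.6% in WT. The number of arrays limits the precision. Differences of at least 2-fold were counted, and no test was run because each genotype had 1 array. The number of unused sample columns was 0. The calling step was run on simulated data without noise, which checks its code and not the floor, the filter or the normalization. Python 3.11.15, pandas 2.3.3 and statsmodels 0.14.6 were used.

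The members, lists and rules were chosen with earlier results of these data known. Named genes were all member probe sets, up to 3 kept genes of each list per direction that were at least 2-fold apart, Cdkn1b and the 5 genes nearest to Cyp1b1. Other names were added after their values were seen. Alternatives were median centring, quantile normalization, loess, unraised signals, log2 of the signal plus 32, other filters and folds, the mean of all probe sets and the authors' ratio.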

Additional observations from a re-analysis of the deposited data

How the results depend on the processing

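No paired analysis was possible because each genotype has 1 array. Without replicates, a log2 value was held to the median SD between probe sets of a gene, 0.23, and a count to a factor of 1.5. Of 268 values recomputed under alternatives, 222 stayed within these limits, 46 moved beyond them, and no member changed direction. The Ahr difference was -1.54 with log2 of the signal plus 32 and -1.37 as the mean of both probe sets, and Ahrr was 0.27 with the signal plus 32. Cyp1b1 was -8.86 without the floor, -5.97 with the signal plus 32, -4.67 as the mean of its probe sets and -8.7 in the authors' deposited table, and Tiparp was 1.91 as the mean of its probe sets. The signal plus 32 shrinks dim differences by construction. Kept genes at least 2-fold higher numbered 752 with the signal plus 32. The upper-quartile filter, which keeps fewer genes, left 559 higher and 461 lower, the 1.5-fold limit gave 2421 and 1773, and the 3-fold limit 528 and 553. Higher genes made up 50.7%, 52.3% and 48.3% of those at least 2-fold apart with median centring, quantile normalization and loess, against 55.1%. AHR complex genes at least 2-fold higher numbered 0 with median centring, quantile normalization, loess, the signal plus 32 and the mean of all probe sets. The battery median was 0.92 with the signal plus 32, 1.14 with no filter and 0.45 with the upper-quartile filter, and its higher genes numbered 1 and 0 with the first and the last of these. The other AHR-responsive genes had medians of -0.18 with the signal plus 32 and 1.25 with the upper-quartile filter, which left 1 lower gene. For the tryptophan enzymes the mean of all probe sets gave 1 higher gene, and the upper-quartile filter left no gene. The bHLH-PAS median was 0.044 with the mean of all probe sets, and its higher genes numbered 1 with that mean, median centring, quantile normalization, loess and the upper-quartile filter, and 0 with the signal plus 32. The upper-quartile filter left 1 higher and 1 lower among the other P450 genes. For these values the cause was not tested.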

Other observations

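Other P450 genes listed for fibroblasts split in the 2 arrays, with 2 of 11 kept members at least 2-fold higher in p27delta51, 3 at least 2-fold lower and a median log2 difference of 0.065, against 10.8% and 8.77% of all kept genes at least 2-fold higher and lower. Ptgis, Cyp26b1 and Cyp27a1 were kept only through their WT signals. Ptgis, the prostacyclin synthase gene and itself a P450, gave 2.6 in p27delta51 and 1514 in WT, at least 102-fold lower. Cyp26b1, which clears retinoic acid, gave 4.5 in p27delta51 and 59.4 in WT, at least 4.01-fold lower, and Cyp27a1, a sterol hydroxylase gene, gave 14.8, the floor, in p27delta51 and 36.0 in WT, at least 2.43-fold lower. In the other direction, the oxysterol hydroxylase genes Cyp7b1 and Cyp39a1 were higher. Cyp7b1 gave 404 in p27delta51 and 53.6 in WT, 7.54-fold higher, with a second bright probe set at 235 in p27delta51 and 27.4 in WT. Cyp39a1 gave 135 in p27delta51 and 50.8 in WT, 2.65-fold higher. Cyp51, of cholesterol synthesis, gave 1523 in p27delta51 and 1456 in WT. Hepatocyte markers, where CYP1 genes are usually studied, had 0 of 5 measured members kept, with summed signals of 45.8 in p27delta51 and 57.7 in WT.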
